A study of Mus musculus with 20 samples.

Results

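The inner nuclear layer (INL) and the inner plexiform layer (IPL) of the mouse retina were compared on 8 of the 20 arrays of the series, 4 arrays for each layer. Arrays were assigned by the layer in their labels. In each layer, 2 arrays came from light-adapted mice and 2 from mice kept in the dark, and both states were weighted equally. The animals were C57BL/6 adults of 7 to 8 weeks, kept either in light of 450 lux for 6 h or in the dark, at no more than 0.4 lux, for 3 h. The labels name no engineered allele and no drug in any group. Each layer was cut from the tissue by laser capture microdissection, and its RNA was labelled with biotin in 2 cycles and hybridised to Affymetrix arrays. The other 12 arrays, of whole retina and of the photoreceptor and ganglion cell layers, entered the model only through the shared estimate of the spread. No label says which animal an array came from, so the p-values measure only how these samples vary, which may be technical.

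The INL holds the cell bodies of bipolar, horizontal and amacrine cells and of Müller glia, the radial glia that span the retina. The IPL is the neuropil beneath it, where bipolar cell terminals release glutamate onto the dendrites of amacrine and ganglion cells and amacrine cells return inhibition. Its RNA comes from processes, terminals and glial endfeet, with few cell bodies inside the layer, while amacrine and ganglion cell bodies lie at its borders. Differences below are INL minus IPL on the log2 intensity scale, so a positive value means a higher level in the INL. Levels are log2 intensities with a lowest possible value of 3, the log2 of the floor of 8. They compare arrays for 1 gene, not genes with each other. A gene is called when its limma p-value, adjusted by Benjamini-Hochberg over 15057 genes, is under 0.05. In bulk samples, fewer cells of a type and less RNA per cell cannot be told apart.

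Signal was even over the 8 arrays, with median intensities of 38.9 to 40.8 and 11.6% to 14.0% of values at the floor. Precision is limited by how few arrays there are. Correlations across genes were 0.855 to 0.928 among INL arrays, 0.777 to 0.873 among IPL arrays and 0.731 to 0.900 between the layers. These ranges overlapped, with medians of 0.899, 0.858 and 0.833 in the same order. The light-adapted IPL arrays stood apart: their median correlations with the arrays of other groups were 0.738 and 0.768, against 0.828 to 0.876 for the other 6 arrays. Replicate 1 of the light-adapted INL had a median intensity of 231.9 over 30 Y-linked probe sets, against 13.85 to 25.05 in the other 7 arrays. That array was 1 of 5 in the series with such signal, and counts are also given without these 5 arrays or without both light-adapted IPL arrays.

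The gene lists matched the labels in part. Over 22 measured bipolar cell genes, the mean level was 6.37 ± 0.30 (SD, n = 4) in the INL, 6.09 ± 0.17 in the IPL and 5.83 in both the photoreceptor and the ganglion cell layer. Over 23 ganglion cell genes it was 5.61 ± 0.05 in the INL, 5.99 ± 0.16 in the IPL and 7.02 ± 0.22 in the ganglion cell layer. The IPL arrays thus lay between the INL and the ganglion cell layer for the ganglion cell genes. Rod phototransduction genes, which mark the neighbouring photoreceptor layer at 9.26 ± 0.05, averaged 6.20 to 7.55 in the 4 INL arrays and 6.45 to 7.19 in the 4 IPL arrays. Over 12 cone phototransduction genes the mean was 5.39 in the INL, 5.24 in the IPL and 6.91 in the photoreceptor layer. Of these genes, Opn1sw, the short-wave cone opsin, had levels of 3.00 to 3.09 in all 8 arrays.

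Between the layers, 730 of 15057 genes were called, or 4.85%. Of these, 244 were higher in the INL (1.62% of genes) and 486 in the IPL (3.23%). A further criterion, that the 4 arrays of each layer do not overlap, was met by 1128 genes (7.49%), 471 with higher INL (3.13%) and 657 with higher IPL levels (4.36%), and by 436 of the called genes. The differences were modest. The median size among called genes was 0.819, and 70 INL-higher and 104 IPL-higher genes differed by at least 1. The median over all genes was -0.011. Most called genes, 720 of 730, had the same sign in light and in dark, but 637 were larger in light, with median sizes of 1.072 in light and 0.543 in dark. Tested alone, light called 840 genes (5.58%), 287 higher in the INL (1.91%) and 553 in the IPL (3.67%). Dark called 3 (0.0199%), 2 higher in the INL (0.0133%) and 1 in the IPL (0.00664%), with 1077 genes (7.15%) at an unadjusted p under 0.05.

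The count moved widely with the arrays included. Leaving out a pair of arrays takes adaptation out of balance between the layers, and it gave 202 called genes without the light-adapted INL, 124 without the dark-adapted INL and 2053 without the dark-adapted IPL. Without the light-adapted IPL 6 genes were called, with 1405 at an unadjusted p under 0.05. These 6 were Slc1a1, Olfr170 and Hacd2, higher in the INL, and Thy1, Yars and Mir182, higher in the IPL. Single arrays mattered in another order: 526 and 821 genes were called without replicate 1 or 2 of the light-adapted IPL, against 286 and 282 without replicate 1 or 2 of the light-adapted INL. The count was also 307 without dark-adapted INL replicate 2 and 383 without dark-adapted IPL replicate 1. Without the 5 arrays with Y-linked signal 149 genes were called, 47 higher in the INL and 102 in the IPL. The plot of light against dark differences shows how the calls spread along the light axis.

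**Figure D1:**
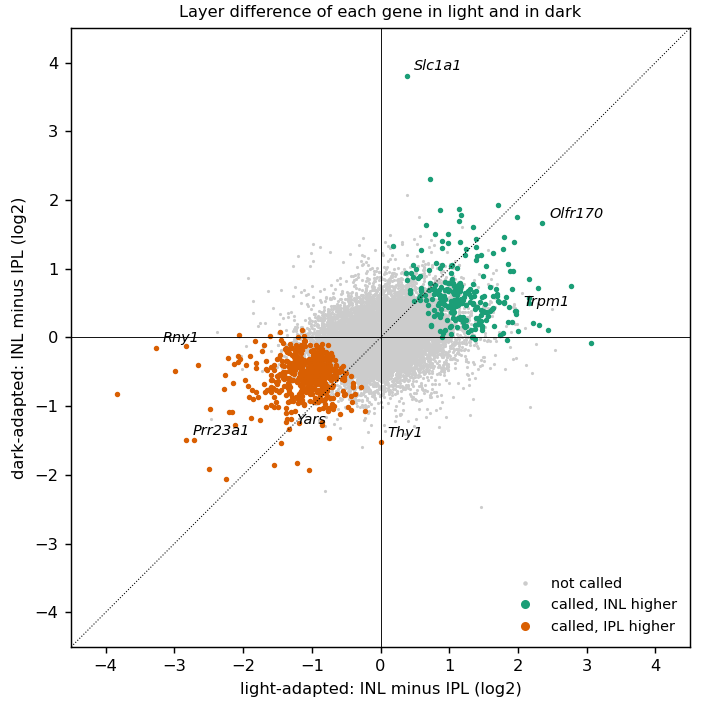
Each dot is 1 of 15057 genes, with the INL minus IPL difference (log2) in light-adapted arrays on the x axis and in dark-adapted arrays on the y axis, 2 arrays against 2 in each. Green and orange mark the 244 genes called higher in the INL and the 486 called higher in the IPL, grey the rest, and the dotted line marks equal differences. Most called genes lie farther from 0 along the light axis, and Slc1a1 stands alone near the top with 0.38 in light and 3.81 in dark.

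Slc1a1, a neuronal glutamate and aspartate transporter, showed the clearest layer difference, and nearly all of it lay in the dark. The INL levels were 8.85 and 8.32 in light and 8.61 and 8.53 in dark. The IPL levels were 8.18 and 8.23 in light but 4.32 and 5.21 in dark. Both dark-adapted IPL arrays thus lay below every other array of the series, where Slc1a1 ranged from 7.07 to 9.23. The layer difference was 2.09 ± 0.17 (SE) with an adjusted p of 7.86e-06, and 3.81 ± 0.24 within dark (adjusted p = 1.53e-07) against 0.38 ± 0.24 within light (adjusted p = 0.368). The dark and light differences themselves differed by 3.43 ± 0.33 (adjusted p = 0.00016). Among the called genes named here, Slc1a1 alone was called under all 22 alternatives run for single genes, with values of 1.77 to 3.82.

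The other genes called within dark were Olfr170 and Thy1. Olfr170, an olfactory receptor gene, had INL levels of 7.63, 7.59, 8.19 and 7.95 against IPL levels of 5.55, 4.96, 6.35 and 6.47 (light, light, dark, dark). No arrays overlapped, and the difference was 2.00 ± 0.17 overall and 1.66 ± 0.24 in dark (adjusted p = 0.0155). Thy1, a surface glycoprotein that marks ganglion cells, was at the floor in all 4 INL arrays and both light-adapted IPL arrays, and at 4.43 and 4.62 in the dark-adapted IPL. Its dark difference of -1.52 ± 0.22 (adjusted p = 0.0155) is therefore a bound, and it is small beside the level of 9.11 ± 0.14 (SD, n = 4) in the ganglion cell layer. No INL or IPL array of Thy1 was over the filter of log2 5, which the gene passed through ganglion cell layer and whole-retina arrays.

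The test of whether the layer difference itself differed between dark and light called 6 of 15057 genes (0.0398%), 4 with a more positive difference in dark (0.0266%) and 2 with a more negative one (0.0133%), with 1369 (9.09%) at an unadjusted p under 0.05. Beside Slc1a1, these were Rny1, Syne2, Ddx18, Mir143 and Paip2, each with an adjusted p of 0.0321 to 0.0334. In Rny1, a small noncoding Y RNA bound by the Ro protein, all INL arrays were at the floor, and the IPL had 6.13 and 6.41 in light and 3.29 and 3.00 in dark. Its light difference is therefore a bound, and in dark both layers lay at or near the floor. Ddx18, an RNA helicase, had 9.68 and 9.88 in the light-adapted IPL against 7.93 to 8.45 in the other 6 arrays. Mir143 had 4.78 and 4.34 in the light-adapted IPL against 6.23 to 6.96 elsewhere in these layers. In these 3 genes the light-adapted IPL was the group that departed. Syne2, a nuclear envelope protein that links nuclei to the cytoskeleton, was instead raised in the dark-adapted INL, at 8.03 and 7.46 against 6.17 and 6.09 in the light-adapted INL. Its IPL levels were 7.334 and 6.678 in light and 6.485 and 6.382 in dark. The dark minus light difference of Syne2 was 2.19 ± 0.36. In the photoreceptor layer Syne2 had a mean of 9.07. The rod gene list averaged 6.88 and 7.55 in the dark-adapted INL and 6.22 and 6.20 in the light-adapted INL. Whether photoreceptor RNA contributed was not tested. Paip2, a repressor of translation that binds poly(A)-binding protein, crossed over, with INL minus IPL differences of 1.06 in light and -0.87 in dark. A second Ddx18 probe set had an INL minus IPL difference of 0.33, against -0.93 for the one used. Other Syne2 probe sets had 0.48, 0.01 and 0.13 over light and dark, against 0.22 for the one used.

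**Figure D2:**
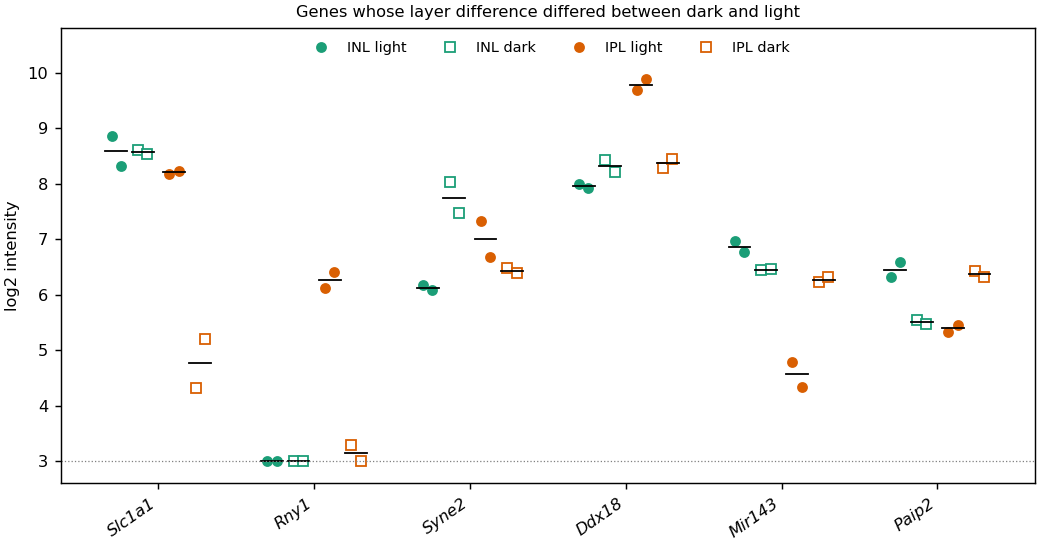
Log2 intensity (y axis) of the 6 genes whose INL minus IPL difference differed between dark and light. Points are arrays, with INL in green, IPL in orange, light filled and dark open; black bars are means of 2 arrays, and the dotted line is the floor of 3. The dark-adapted IPL arrays of Slc1a1 lie at 4.32 and 5.21 while all other points of the gene are above 8.

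Bipolar cell genes were called mainly in the INL direction. Of 22 measured genes of 25 listed, 3 were higher in the INL and 1 in the IPL (18.2% called, against 4.85% of all genes), with a median difference of 0.139. Of 15 genes of the cascade by which ON bipolar cells answer glutamate through the metabotropic receptor Grm6, 3 were higher in the INL (20%), with a median of 0.184. Trpm1, the cation channel at the end of that cascade, had INL levels of 6.98 and 6.82 in light and 6.13 and 6.01 in dark, against IPL levels of 4.69, 5.16, 5.63 and 5.75. The layers did not overlap, and the gap was wide in light and narrow in dark. The difference was 1.18 ± 0.18 (adjusted p = 0.00202), made up of 1.98 in light and 0.38 in dark. The test of that change with adaptation gave an adjusted p of 0.209.

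The other called members of the cascade were a G protein subunit and its regulator. Rgs11, which speeds the shut-off of the G protein, had 6.56, 6.47, 5.98 and 6.36 in the INL and 5.45, 5.71, 5.27 and 5.68 in the IPL. Its layers did not overlap either, and its difference of 0.82 ± 0.16 (adjusted p = 0.01) was similar in light (0.94) and dark (0.70). Gnb3, a G protein beta subunit of ON bipolar cells and cones, differed by 0.86 ± 0.21 (adjusted p = 0.0275). The receptor Grm6 went the other way without being called, at -0.43 ± 0.17 (adjusted p = 0.175), and Pcp2, a modulator of G proteins in ON bipolar cells, was at 8.67 in the INL and 8.64 in the IPL. Members of 1 cascade therefore did not move as a block.

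Among the remaining bipolar genes, Prkca, the protein kinase of rod bipolar cells, had 6.73, 7.12, 6.48 and 7.83 in the INL against 6.03, 5.49, 6.51 and 6.31 in the IPL. These layers overlapped in dark, and the difference was 0.96 ± 0.25 (adjusted p = 0.0398). Scgn, a calcium-binding protein of cone bipolar cells, differed by 1.30 ± 0.32 (adjusted p = 0.0303). Its INL levels of 4.38 to 6.59 overlapped its IPL levels of 3.22 to 4.71. Cdh8, an adhesion molecule of a subset of OFF bipolar cells, differed by 1.05 ± 0.19 (adjusted p = 0.00756) and almost equally in light (1.03) and dark (1.06). Cabp5, a calcium-binding protein of rod and cone bipolar cells, had a difference of 1.07 ± 0.34 that missed the threshold (adjusted p = 0.0768). Otx2, a transcription factor of bipolar cells and photoreceptors, had 0.51 ± 0.20 (adjusted p = 0.145). The exception among the called genes was Irx5, a homeobox gene of cone bipolar cells, 1.71-fold higher in the IPL (adjusted p = 0.0413). The whole-retina mean of Irx5 was 4.77, below its INL mean of 5.195. Called or not, 15 of the 22 genes had a positive difference and 7 a negative one. Without both light-adapted IPL arrays limma called 0 of these 22 genes and 0 of the 15 cascade genes, with 1 and 3 at an unadjusted p under 0.05. Without the arrays with Y-linked signal it called Cdh8 of this list and Trpm1 of the cascade.

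Müller glia genes did not separate the layers as a list: 1 of 20 was called (5%, against 4.85% of all genes). The median was 0.086, with 0.318 in light and -0.139 in dark. The called gene was Rlbp1, the retinaldehyde-binding protein of Müller cells. Its INL levels were 7.13 and 7.27 in light and 7.04 and 7.76 in dark, and its IPL levels 5.68 and 5.85 in light and 7.17 and 7.17 in dark. The layers were far apart in light and overlapped in dark, with differences of 1.43 and 0.23 and an overall 0.83 ± 0.16 (adjusted p = 0.01). When both light-adapted IPL arrays were left out, its difference was 0.13. Without the arrays with Y-linked signal limma called 0 of the 20 Müller genes, with 2 at an unadjusted p under 0.05. Glul, the glutamine synthetase of these cells, had levels of 8.83 ± 0.33 in the INL and 8.56 ± 0.94 in the IPL (SD, n = 4). A second Glul probe set had an INL minus IPL difference of 0.558, against 0.265 for the one used. The glutamate transporter Slc1a3, the water channel Aqp4, the transcription factor Sox9 and the chaperone Clu had differences between -0.19 and 0.18, none called. No horizontal cell gene was called of 8 measured, with 1 at an unadjusted p under 0.05. Prox1, expressed in horizontal and other INL cells, had 0.90 ± 0.38 (adjusted p = 0.187).

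Of 12 cone phototransduction genes, 2 were higher in the INL (16.7%, against 4.85% of all genes called), with a median of 0.163. They were Gnb3, already given, and Gnat2, the cone transducin alpha subunit. Gnat2 had 6.85, 7.13, 6.90 and 6.84 in the INL and 5.83, 5.94, 6.45 and 6.38 in the IPL. The layers did not overlap, with a difference of 0.78 ± 0.13 (adjusted p = 0.00538). With the light-adapted IPL arrays removed, its difference was 0.52 and not called (adjusted p = 0.316). Both layers lay well below the photoreceptor layer, where Gnat2 was at 8.35 ± 0.19 (SD, n = 4). The median of the rod genes was -0.663 in light and 0.294 in dark, none of them was called for a change between the states, and limma called 0 of 18, with 2 at an unadjusted p under 0.05. Gnat1, the rod transducin alpha subunit, had 6.37 and 6.89 in the light-adapted INL against 7.96 to 9.31 in the other 6 arrays. The part of photoreceptor RNA in the layer differences was not tested.

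Promoter sequence was at hand for part of these genes, and the core motif of OTX2 and CRX, homeobox factors of bipolar cells and photoreceptors, was searched in it. The motif is TAATCC, read on either strand, in windows of 300 bases that run from 250 before to 50 after a gene's start (RefSeq, GRCm38.p6). It was present in 9.17% of 218 windows of INL-higher genes and 6.25% of 448 windows of IPL-higher genes, against 5.98% of 14907 windows of genes tested and 7.06% of all 32851 windows. The homeobox core TAATTA, its own reverse complement, was present in 2.75%, 3.35%, 3.13% and 5.29% of the same sets. Of the 8 genes of the bipolar, cascade, Müller and cone lists that were higher in the INL, Gnb3 and Rgs11 had no window here, and Cdh8, Prkca, Rlbp1 and Scgn had windows without TAATCC. The windows of Trpm1 (1 of its 2) and Gnat2 held 1 match each and are shown 5′ to 3′ with the match, GGATTA on this strand, in capitals. It begins at position -34 of Trpm1 and -19 of Gnat2, counted from the start site, and it is a match of letters only. Trpm1 lies on the plus strand at chr7:64153585-64153884 and Gnat2 on the plus strand at chr3:108092816-108093115.
Trpm1: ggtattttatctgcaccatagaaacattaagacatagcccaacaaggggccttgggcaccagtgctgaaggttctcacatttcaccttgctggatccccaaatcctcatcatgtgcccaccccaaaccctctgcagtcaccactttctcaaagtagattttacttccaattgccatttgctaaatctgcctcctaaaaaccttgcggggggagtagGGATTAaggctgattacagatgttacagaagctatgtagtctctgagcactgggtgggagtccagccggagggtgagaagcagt
Gnat2: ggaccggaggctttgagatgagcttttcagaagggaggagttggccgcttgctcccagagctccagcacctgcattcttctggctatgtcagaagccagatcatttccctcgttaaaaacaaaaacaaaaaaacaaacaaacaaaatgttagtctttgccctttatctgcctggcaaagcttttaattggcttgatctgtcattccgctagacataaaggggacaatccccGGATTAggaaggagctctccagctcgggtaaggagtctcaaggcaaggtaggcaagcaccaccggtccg

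The called amacrine cell genes were higher in the IPL. Of 23 measured genes of 29 listed, 2 were higher in the IPL and 0 in the INL (8.7% called, against 4.85% of all genes). A negative difference was seen in 17 of the 23, and the median was -0.192. Ptf1a, a transcription factor that specifies amacrine and horizontal cells, had 3.84, 3.81, 3.94 and 4.04 in the INL and 5.48, 5.94, 6.02 and 4.31 in the IPL. All IPL arrays lay above all INL arrays, and the gene was 2.89-fold higher in the IPL (difference -1.53 ± 0.30, adjusted p = 0.00967). The whole-retina mean of Ptf1a was 3.46, below its INL mean of 3.90. Tfap2a, a transcription factor of amacrine cells, was 1.68-fold higher in the IPL (-0.75 ± 0.20, adjusted p = 0.0417), also without overlap. Its whole-retina mean of 4.89 was close to its INL mean of 4.92. The transmitter genes were not called: Gad1, which makes GABA, had -0.45 ± 0.17 (adjusted p = 0.145), the vesicular GABA transporter Slc32a1 had -0.25, the glycine transporter Slc6a9 had -0.20, the acetylcholine enzyme Chat had 5.26 in the INL and 5.27 in the IPL and the dopamine enzyme Th had -0.14. Pax6 had 0.12 ± 0.27. Without both light-adapted IPL arrays limma called 0 of the 23 genes, with 5 at an unadjusted p under 0.05, and the counts were the same without the arrays with Y-linked signal.

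Ganglion cell genes had the most negative median of the cell type lists, -0.340, with 19 of 23 below 0. Of the 23, 3 were called higher in the IPL and 0 in the INL (13%, against 4.85% of all genes). Sncg, a synuclein of ganglion cells, had 7.68, 8.05, 7.74 and 7.81 in the INL and 8.03, 9.24, 8.86 and 8.82 in the IPL. A single light-adapted IPL array fell inside the INL range, and the gene was 1.89-fold higher in the IPL (-0.92 ± 0.23, adjusted p = 0.0289). Atoh7, a transcription factor needed to form ganglion cells, had 7.61 to 7.87 in the INL and 8.27 to 8.95 in the IPL (-0.86 ± 0.11, adjusted p = 0.000795). Thy1, described above, was the other called member. Nefl, a neurofilament subunit of long axons, had the widest gap of the list, -1.53 ± 0.45, but varied from 4.08 to 6.94 over the IPL arrays and was not called (adjusted p = 0.064). Pou4f1, a ganglion cell transcription factor, had -0.98 ± 0.29 (adjusted p = 0.059), while Rbpms, an RNA-binding protein of ganglion cells, had -0.09 ± 0.19. In the ganglion cell layer Sncg reached 9.80, Nefl 7.81 and Rbpms 7.70, but Atoh7 had 7.96 there, below its IPL mean of 8.59. The whole-retina mean of Atoh7, 7.12, was below its INL mean of 7.73, while that of Sncg, 8.51, lay between its INL and IPL means. When both light-adapted IPL arrays were left out, Thy1 alone was called, and without the arrays with Y-linked signal Atoh7 alone. Whether ganglion cell bodies at the border of the cut strip contributed was not tested.

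**Figure D3:**
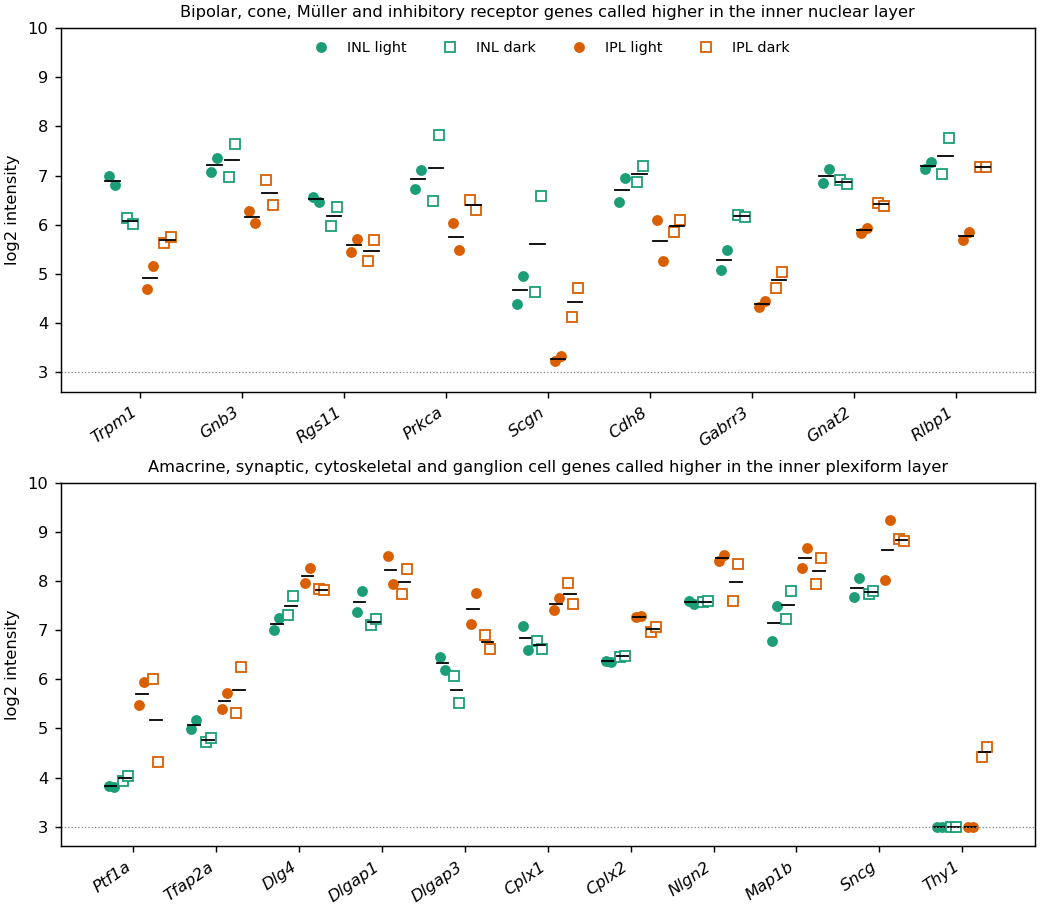
Log2 intensity (y axis) of called genes of the cell type and synaptic lists, those higher in the INL in the upper panel and those higher in the IPL in the lower panel. Points are single arrays, with INL in green, IPL in orange, light filled and dark open; black bars are means of 2 arrays and the dotted line is the floor of 3. Trpm1 and Rlbp1 show wide gaps in light and narrow ones in dark, and Thy1 leaves the floor in the dark-adapted IPL arrays alone.

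Of 29 measured genes of the postsynaptic scaffold and of dendritic transcripts, 4 were higher in the IPL and 0 in the INL (13.8%, against 4.85% of all genes). The median was -0.136 (0.003 in light, -0.187 in dark). Dlgap3, a scaffold protein bound to the postsynaptic density, had 6.46, 6.19, 6.06 and 5.51 in the INL and 7.12, 7.76, 6.89 and 6.62 in the IPL. It was 2.06-fold higher in the IPL (-1.04 ± 0.19, adjusted p = 0.00728), without overlap and to a like extent in light (-1.11) and dark (-0.97). Dlg4, the main scaffold of excitatory synapses, had 7.01 to 7.69 in the INL and 7.81 to 8.26 in the IPL (-0.66 ± 0.15, adjusted p = 0.0182). Its difference was -0.98 in light and -0.33 in dark. The means of Dlg4 in the photoreceptor layer, 8.05, and whole retina, 8.09, were above its IPL mean of 7.97. Dlgap1 was 1.66-fold higher in the IPL (adjusted p = 0.0333), and its second probe set had -0.86 against -0.73. In whole retina, Dlgap3 and Dlgap1 had means of 5.825 and 6.808, below their INL means of 6.056 and 7.375. Actb, the beta actin gene whose mRNA travels into neurites, was 1.61-fold higher (adjusted p = 0.0488). The 25 members not called ranged from -0.48 for Ppp1r9b to 0.59 for Pick1 and included Shank1 (-0.02), Shank2 (0.36), Dlgap4 (-0.30) and the dendritic transcript Map2 (0.02). With the light-adapted IPL arrays removed, limma called 0 of the 29, with 6 at an unadjusted p under 0.05, and without the arrays with Y-linked signal it called Dlgap3.

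Of 39 vesicle and release genes, 2 were higher in the IPL and 0 in the INL (5.13%, close to the 4.85% of all genes), with a median of 0.016. Both were complexins, which clamp and trigger vesicle fusion at conventional synapses. Cplx2 had 6.36 to 6.47 in the INL and 6.97 to 7.29 in the IPL (1.66-fold, adjusted p = 0.014). Cplx1 had 6.60 to 7.09 in the INL and 7.40 to 7.96 in the IPL (1.82-fold, adjusted p = 0.0259). The whole-retina mean of Cplx2, 6.14, was below its INL mean of 6.42, while that of Cplx1, 6.80, lay between its layers. Cplx3 and Cplx4, the complexins of ribbon synapses, had positive differences of 0.66 and 0.39 that were not called. Synaptophysin, Syp, had 0.02, and the piccolo gene Pclo 0.63. Without both light-adapted IPL arrays limma called 0 of the 39, with 3 at an unadjusted p under 0.05, and without the arrays with Y-linked signal 0, with 6.

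Inhibitory receptor genes gave 1 call in each direction among 16 measured of 29 listed (12.5%, against 4.85% of all genes). The median was 0.167. Gabrr3, a subunit of the GABA receptors of bipolar terminals, had 5.09, 5.48, 6.21 and 6.16 in the INL and 4.33, 4.45, 4.72 and 5.04 in the IPL. It differed by 1.10 ± 0.22 (adjusted p = 0.0111) without overlap. Its relatives Gabrr1 and Gabrr2 had 0.54 and 0.43, not called. Nlgn2, the adhesion protein of inhibitory synapses, had 7.54 to 7.59 in the INL and 8.40, 8.53, 7.60 and 8.35 in the IPL (-0.65 ± 0.16, adjusted p = 0.0269). Its whole-retina mean of 7.26 was below its INL mean of 7.58. No glutamate receptor gene was called of 21, with 5 at an unadjusted p under 0.05; Gria2, an AMPA receptor subunit, had the largest positive value, 1.18 ± 0.56 (adjusted p = 0.236). When both light-adapted IPL arrays were left out, neither Gabrr3 nor Nlgn2 was called, and without the arrays with Y-linked signal Gabrr3 was.

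Among 37 genes of microtubules and the neurite cytoskeleton Map1b was the only call (2.7%, under the 4.85% of all genes). Map1b, a microtubule-associated protein of axons and dendrites, had 6.78, 7.50, 7.23 and 7.79 in the INL and 8.26, 8.68, 7.93 and 8.47 in the IPL. It was 2.01-fold higher in the IPL (-1.01 ± 0.22, adjusted p = 0.017). In the photoreceptor layer, ganglion cell layer and whole retina Map1b had means of 9.21, 8.94 and 8.76, above its IPL mean of 8.335. Of 46 potassium channel genes, 4 were higher in the IPL and 1 in the INL (10.9%), with a median of -0.112. Kcns3, a silent voltage-gated subunit, had 7.17 to 7.40 in the INL and 8.46, 8.39, 7.57 and 7.47 in the IPL (adjusted p = 0.00997). Kcna1, an axonal voltage-gated channel, was 1.61-fold higher in the IPL (adjusted p = 0.0186), Kcnj4, an inward rectifier, 1.78-fold (adjusted p = 0.026) and Hcn4, a channel opened by hyperpolarisation, 1.61-fold (adjusted p = 0.0408). Kcna5 was the INL-higher member, at 0.91 ± 0.19 (adjusted p = 0.0131). The pannexins Panx1 and Panx2, large-pore membrane channels, were 1.74-fold and 1.73-fold higher in the IPL (adjusted p = 0.0118 and 0.01), 2 of 11 genes of the gap junction list (18.2%). Whole-retina means of Kcns3, Kcna1, Kcnj4, Panx1 and Panx2 were 6.884, 5.486, 5.225, 5.394 and 6.955. Each was below the INL mean of its gene, 7.256, 5.683, 5.422, 5.732 and 7.462 in the same order. With the light-adapted IPL arrays removed, limma called 0 of the 46 potassium channel genes, with 5 at an unadjusted p under 0.05, 0 of the 11 gap junction genes, with 0, and did not call Map1b. Without the arrays with Y-linked signal it called Panx2, but not Map1b, Panx1 or any potassium channel gene, of which 11 had an unadjusted p under 0.05.

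Of 29 immediate early genes, 4 were higher in the IPL and 0 in the INL (13.8%, against 4.85% of all genes). The median was -0.261, more negative in light (-0.364) than in dark (-0.161). Klf4, a zinc finger factor, had 4.49 to 5.18 in the INL and 6.82, 7.17, 6.50 and 5.82 in the IPL. The layers did not overlap, and it was 3.07-fold higher in the IPL (-1.62 ± 0.25, adjusted p = 0.00214). The whole-retina mean of Klf4 was 4.22, below its INL mean of 4.96. Jun, Fosl2 and Jund, subunits of the AP-1 factor, had differences of -0.73, -0.81 and -0.60. In whole retina Fosl2 had 5.87, below its INL mean of 6.22, while Jun, at 5.58, lay between its layers. The Jund difference was -1.20 in light, and in dark its IPL levels of 7.43 and 6.95 enclosed the INL levels of 7.28 and 7.10. The light-responsive Fos, Egr1 and Nr4a1 had -0.23, -0.09 and 0.05, not called. Without both light-adapted IPL arrays limma called 0 of the 29, with 5 at an unadjusted p under 0.05, and without the arrays with Y-linked signal it called Klf4.

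Lists of general cell machinery had called shares of at most 7.69%, against 4.85% of all genes. Of 42 splicing and nuclear RNA-binding genes, 1 was higher in the INL and 2 in the IPL (7.14%), with a median of 0.156. Luc7l3, a splicing factor, carried the INL call through 6.40 and 6.62 in the light-adapted IPL against 8.07 to 9.65 in the other 6 arrays. Hnrnpa0 and Tra2a were the IPL calls, and other probe sets of Tra2a had 0.09 and 0.32 against -0.78 for the one used. Of 52 cytosolic ribosomal protein genes, 3 were higher in the INL and 1 in the IPL (7.69%), with a median of 0.037; Rpl41 had 0.93 ± 0.18 and identical values on its 3 probe sets. Such genes have near-identical copies, so their probe sets may read several loci. Of 49 oxidative phosphorylation genes Cox8a was called, 1.48-fold higher in the IPL (2.04%). Whole-retina means of Tra2a and Cox8a were 7.299 and 6.895, below their INL means of 7.541 and 7.21. The 20 glycolysis genes had a median of -0.232, and limma called 0, with 6 at an unadjusted p under 0.05. When both light-adapted IPL arrays were left out, limma called none of the genes named in these 4 lists, and without the arrays with Y-linked signal Rpl41 alone of them.

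Markers of other cells the dissection could carry gave no call: limma called 0 of 8 astrocyte, 0 of 16 endothelial and pericyte, 0 of 9 microglial and 0 of 7 pigment epithelial genes. At an unadjusted p under 0.05 these lists had 1, 0, 1 and 1 genes, and their medians were -0.237, 0.018, 0.045 and -0.033. Of 46 genes of adhesion and guidance in lamination, Cdh8 was the only call (2.17%), with a median of -0.046. Of 25 calcium-binding protein genes, Scgn was higher in the INL and Hpcal1, a hippocalcin relative, in the IPL (8%, against 4.85% of all genes). Hpcal1 was 1.70-fold higher there (adjusted p = 0.0137). Nuclear long noncoding RNAs, which stay near cell bodies, had a median of 0.208 over 7 genes, with 0.756 in light and -0.029 in dark. Among them Malat1 had 0.74 (adjusted p = 0.17) and Tug1 0.92, and limma called 0, with 2 at an unadjusted p under 0.05.

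**Figure D4:**
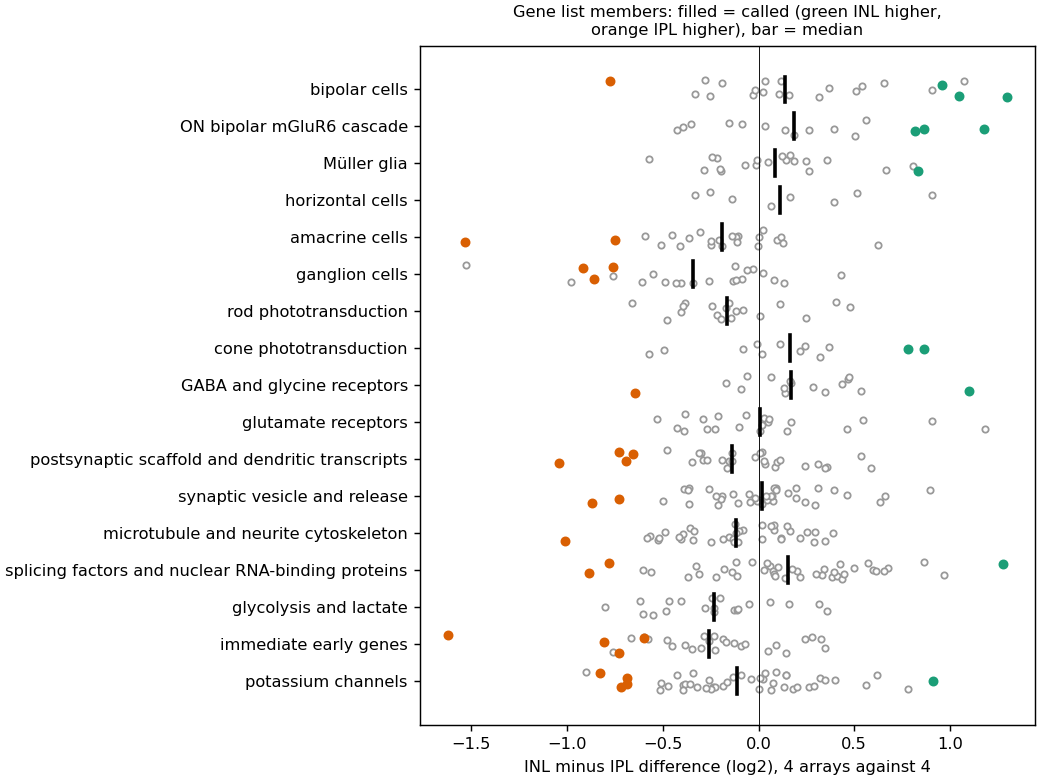
INL minus IPL difference (log2, x axis) of every measured member of 17 gene lists (y axis), 4 arrays against 4. Filled green and orange dots are members called higher in the INL and in the IPL, open dots are not called, and the black bar is the median of the list. Ganglion cell genes have the lowest median of those shown, -0.340, and the ON bipolar cascade the highest, 0.184.

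The largest differences fell mostly outside the lists. MicroRNA genes, grouped after their values were seen, were called in 34 of 139 cases (24.5%, against 4.85% of all genes). Of the 34, 14 were higher in the INL and 20 in the IPL. Over all genes, 1.62% were called higher in the INL and 3.23% in the IPL. The median difference of the 139 was 0.067. The arrays read the gene or its hairpin, so these values are not levels of the mature strand. Of the 6 microRNA genes among the largest differences, mature strands of 5 are shown to tell which regulators these are, from RefSeq (GRCm38.p6), 5′ to 3′, with the seed (bases 2 to 8) in capitals. Mir151, 3.34-fold higher in the IPL (adjusted p = 0.00199), is named only. Mir103-2 and Mir379 were higher in the INL, and Mir218-1, Mir331 and Mir532 in the IPL. The strands lie at chr2:131288103-131288125 (plus), chr12:109709065-109709085 (plus), chr5:48223966-48223986 (plus), chr10:93963783-93963803 (minus) and chrX:7248419-7248440 (minus). None of the 5 seeds is shared.
mmu-miR-103-3p: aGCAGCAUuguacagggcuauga
mmu-miR-379-5p: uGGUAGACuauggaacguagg
mmu-miR-218-5p: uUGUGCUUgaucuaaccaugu
mmu-miR-331-3p: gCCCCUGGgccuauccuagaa
mmu-miR-532-3p: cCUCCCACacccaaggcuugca

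In the layer where they were low, these 5 genes had levels of 3.00 to 4.84. Mir103-2 had 4.26, 5.16, 4.41 and 6.18 in the INL and 3.00, 3.00, 3.63 and 3.12 in the IPL (1.82 ± 0.35, adjusted p = 0.00976). Mir379 had 4.19 to 5.88 in the INL and 3.00 to 3.60 in the IPL (1.87 ± 0.52, adjusted p = 0.047). Mir218-1 had 3.84 to 3.96 in the INL and 6.50, 6.27, 4.38 and 7.26 in the IPL (-2.20 ± 0.52, adjusted p = 0.0236). In each of these genes no INL array overlapped an IPL array, which was a condition of the rule that chose them. The IPL was at the floor in 2 arrays for Mir103-2 and in 1 for Mir379, so these differences are lower bounds. Mir331 had 3.60 to 4.84 in the INL and 7.27, 6.87, 5.76 and 5.04 in the IPL (-2.10 ± 0.26, adjusted p = 0.000583), and Mir532 was 3.26-fold higher in the IPL (adjusted p = 0.022). Mir182, one of the genes called without the light-adapted IPL arrays, had 3.34 to 3.72 in the INL and 5.27, 3.68, 5.51 and 5.65 in the IPL (adjusted p = 0.0118 on all arrays).

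Among protein-coding genes with the largest differences, Prr23a1, a proline-rich gene, had 4.99, 5.46, 5.20 and 5.19 in the INL and 8.37, 7.76, 6.80 and 6.58 in the IPL. It was 4.49-fold higher in the IPL (-2.17 ± 0.24, adjusted p = 0.000352), more so in light (-2.83) than in dark (-1.50). Yars, the tyrosyl-tRNA synthetase, differed equally in both states, with 5.69, 5.72, 5.72 and 6.00 in the INL and 7.17, 6.91, 6.83 and 7.57 in the IPL. Its difference was -1.34 ± 0.17 (adjusted p = 0.000706), with -1.33 in light and -1.34 in dark, and it was called under 21 of 22 alternatives. H2bc14, a histone gene, was 3.13-fold higher in the IPL (adjusted p = 0.000485) and Fignl2 2.87-fold (adjusted p = 0.00284). In whole retina, Prr23a1, H2bc14 and Fignl2 had means of 4.37, 6.49 and 3.87, below their INL means of 5.21, 6.89 and 4.24. The whole-retina mean of Yars, 6.46, lay between its layers. In the other direction, Hacd2, an enzyme of very long chain fatty acid synthesis, had 6.93, 6.68, 6.52 and 6.79 in the INL and 6.02, 5.61, 5.48 and 4.82 in the IPL (1.25 ± 0.20, adjusted p = 0.00284). A second, dimmer Hacd2 probe set had -0.18. Sp140, a nuclear body protein of immune cells, had 1.51 ± 0.20 (adjusted p = 0.000706), again with low levels in the light-adapted IPL, 3.88 and 3.86. Ptbp1, a splicing repressor, was 3.24-fold higher in the IPL by the probe set used, and its second probe set had -0.03. Its whole-retina mean of 5.635 lay between its layers.

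Chemosensory receptor genes, the receptors of smell, taste and pheromones, were called in 24 of 406 measured cases (5.91%, near the 4.85% of all genes), 18 higher in the INL and 6 in the IPL, with a median of 0.099. In 41 of them (10.1%) the INL arrays lay above all IPL arrays without overlap, and in 4 (0.985%) below, against 3.13% and 4.36% of all genes. Olfr603 was the largest IPL-higher member, at -2.15 ± 0.32 with 5.38 to 6.07 in the IPL and 3.00 to 3.95 in the INL. Probe sets without a single gene symbol were called more often than those with one in the same model, 14.7% of 9260 against 5.91% of 16444. Of the former, 717 were higher in the INL and 643 in the IPL. By level, the called share of genes was 3.85% to 4.52% in the lower 4 quintiles of mean intensity and 7.50% in the highest.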

How the data were processed

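Layers were captured by laser microdissection and measured on Affymetrix arrays. The authors deposited 1 table of normalized intensity, made with GCRMA per the submitters' processing notes, with no version given there; the linear scale was read from the values. Genome build: not given in the sources used here. Intensities were floored at 8 and taken as log2. Of 35557 probe sets, 21789 had 1 gene symbol in the platform annotation, 1621 several and 12147 were not listed. Probe sets over log2 5 in at least 2 of 20 arrays were kept, and the brightest stood for each gene, leaving 15057 genes. One limma model (3.58.1, R 4.3.3) held 10 group means over 20 arrays, with an intensity trend and Benjamini-Hochberg adjustment, two-sided. The model was tested on simulated data.

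Members and gene lists were chosen with earlier results of these data known. Named genes were the 12 largest differences per direction without overlap, the 8 per direction largest in both adaptations, up to 3 called per list and direction, and fixed markers. Actb, Gnat1, Hcn4, Jund, Opn1sw, Dlgap4, Map2, Pick1, Ppp1r9b, Shank1, Shank2, Cplx3, Cplx4, Syp, Pclo, Gabrr1, Gabrr2, Gria2, Fos, Egr1, Nr4a1, Malat1, Tug1 and Mir182 were added after their values were seen. Alternatives changed scaling, floor, filter, probe set rule, variance model, block and arrays.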

Additional observations from a re-analysis of the deposited data

Results flagged for a closer look

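In 8 of 142 groups of 4 arrays (a gene in a layer), 1 array lay far from the other 3 by Dixon's criterion, and chance gives about 1 in 20. Dark-adapted IPL replicate 1 was low for Fosl2 (6.67, others 7.12 to 7.20) and Hpcal1 (6.86, others 7.17 to 7.23). Dark-adapted INL replicate 2 was low for Mir532 (3.43, others 4.54 to 4.60) and high for Yars (6.00, others 5.69 to 5.72). Light-adapted INL replicate 1 was high for Olfr1010 (6.02, others 5.04 to 5.19) and Rpl23 (7.93, others 7.86 to 7.87). Light-adapted INL replicate 2 was high for Olfr622 (6.92, others 6.02 to 6.11), and dark-adapted INL replicate 1 for Sp140 (6.63, others 6.15 to 6.18).

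The INL minus IPL difference itself differed between dark and light for 6 genes by limma. The dark minus light value was 3.43 for Slc1a1, 3.12 for Rny1 (INL at the floor in all 4 arrays, so no exact size), 2.19 for Syne2, 1.77 for Ddx18, -1.93 for Paip2 and -2.12 for Mir143.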

How the results depend on the processing

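The number of called genes depended on the arrays and the variance model. Against 730 for the layers, 840 in light, 3 in dark and 6 for the change between them, a model of the 8 layer arrays alone gave 105, 169, 1 and 2. Array weights gave 309, 412, 1 and 1, a minimum difference of 1 gave 1, 4, 1 and 1, and leaving out the arrays with Y-linked signal gave 149, 112, 1 and 1. A filter at log2 7 gave 390 for the layers and 462 in light. For the change between dark and light, log2 of intensity plus 16 gave 10 genes and no filter gave 11. Leaving out both light-adapted IPL arrays, chosen after seeing the data, gave 6 for the layers; the same for the light-adapted INL gave 202, for the dark-adapted INL 124 and for the dark-adapted IPL 2053. Leaving out 1 array gave 282 to 821 for the layers, 186 to 929 in light, 1 to 3 in dark and 1 to 11 for the change; the layer count was 286 without light-adapted INL replicate 1, 282 without its replicate 2, 307 without dark-adapted INL replicate 2 and 383 without dark-adapted IPL replicate 1. With the replicate number as a block, 1183 genes were called for the layers and 1472 in light. The labels give no meaning to the number. The correlations of paired deviations between groups were 0.079 to 0.344, all positive. Whether arrays with the same number share an animal or a batch cannot be told from these values and was not tested. Quantile normalization gave 661 and median centring 825 for the layers, 214 higher in the INL and 611 in the IPL. Quantile normalization and median centring moved the median of all genes to -0.015 and -0.048, and turned the median of the glutamate receptor list from 0.007 to -0.035 and -0.029. Centring also turned that of the vesicle list from 0.016 to -0.02. Of 1529 pairs of a named called gene and an alternative, 1066 kept the call, 463 lost it and 0 changed sign. The causes were not tested. Values at the floor of 3 give bounds, not differences.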
